A study of Canis lupus familiaris with 186 samples.

Results

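The extracellular matrix of cartilage and the transcription factors that switch it on were followed through 10 genes in primary osteosarcomas of 186 pet dogs. They are the matrix genes COL2A1, COL9A1, COL11A2, ACAN, MATN3 and COMP, the hypertrophic cartilage gene COL10A1, and the regulators SOX9, SOX5 and SOX6. They were chosen by name, each matched 1 row of the 37952 genes in the deposited table, and 9 of the 10 passed the filter on low counts that 13422 genes passed. Each dog gave 1 mRNA sequencing library from a biopsy of an appendicular osteosarcoma, taken before any treatment, and the dogs varied in age, breed and sex. The labels divide the tumors by clinical trial into COTC021 (n = 93) and COTC022 (n = 93) and give no genotype, treatment or time point. After the biopsy, all dogs underwent amputation and carboplatin was given with or without rapamycin, so these treatments came after sampling.

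Osteosarcoma is a tumor whose cells lay down bone matrix, and some tumors also lay down cartilage. In cartilage, type II collagen fibrils are built together with types IX and XI, aggrecan holds water between them, and matrilins and COMP link the fibrils to the rest of the matrix. SOX9 turns these genes on together with SOX5 and SOX6, and in the growth plate the proliferating chondrocytes that make type II collagen mature into hypertrophic chondrocytes, whose own collagen is type X.

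Library totals ranged from 6587631 to 27420857 counts, with a median of 10797162. In 50 libraries (18 of COTC021, 32 of COTC022) the name of the deposited column holds a doubled separator ("__"), and their median total was 19440450 counts, against 9851681 in the other 136. What the name stands for is not given in the sources used here, so the fits and correlations were repeated within these groups of libraries, which hold fewer dogs, and calls lost there are named. Among genes of bone matrix, COL1A1 (type I collagen) lay between 345 and 148423 CPM (counts scaled to library size with TMM factors), with a median of 20237 CPM. IBSP (bone sialoprotein) lay between 0 and 11600 CPM with a median of 699.6 CPM. It was at 100 CPM or more in 159 of the 186 dogs. A library of COTC022 stood apart. The median of its correlations with the other libraries was 0.692, against 0.772 for the next lowest. It had the lowest COL1A1 and the highest PTPRC (the leukocyte antigen CD45) of the 186 libraries, no count of ACAN, COL2A1, COL9A1 or SOX9, and the lowest MATN3 and SOX6. Results were therefore also computed without it, a choice made after seeing the data. A dog of COTC021 was the highest in 9 of the 10 genes, all but SOX6, and in 7 by CPM of the library total without TMM factors. Its 10 genes took 7.10% of its counts, its TMM factor was 0.667, and the median of its correlations with the other libraries was 0.845. Results without this dog were also computed after seeing the data.

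The genes lie apart in the dog genome (GSD_1.0, start to end of the gene). ACAN is on chromosome 3 (52485855 to 52522279), SOX9 on chromosome 9 (8722828 to 8725975), MATN3 on chromosome 17 (15076833 to 15093993), COMP on chromosome 20 (44715955 to 44723648) and SOX6 on chromosome 21 (39389267 to 39977587). COL2A1 (39807429 to 39838181) and SOX5 (22685794 to 23683255) share chromosome 27. COL11A2 (2781723 to 2811021), COL9A1 (32987732 to 33078117) and COL10A1 (72268767 to 72275438) share chromosome 12. The span of COL10A1 lies within that of NT5DC1 (72254898 to 72373702), and those of COL2A1, SOX5 and SOX6 overlap uncharacterized loci. The libraries were made with a stranded kit, but whether strand was used in counting is not given in the sources used here, so reads of overlapping genes may have been divided between them. NT5DC1 was at least 14.6 CPM in the libraries with no COL10A1 count, and the r between both genes was -0.07 (186 dogs).

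Most tumors held little type II collagen transcript and a few held a great deal. COL2A1, the main fibrillar collagen of hyaline cartilage, ranged from 0 to 73882 CPM with a median of 7.37 CPM. It was at 100 CPM or more in 48 dogs and had no count in 4. In the highest dog it took 4.92% of all counts of the library. The 10 highest dogs held 86.1% of the CPM summed over the 186 dogs, against a median of 12.3% over the genes tested. Medians were 10.6 CPM in COTC021 and 6.57 CPM in COTC022, and the ranges of the trials overlapped up to 17115 CPM, which was the highest level without the dog highest in 9 genes. Without it the 10 highest held 75.3%. Medians were 13.2 CPM in the libraries with a doubled separator against 6.85 CPM in the others.

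COL9A1, a chain of the type IX collagen that coats the type II fibril, ranged from 0 to 5116 CPM with a median of 1.21 CPM. It had no count in 19 dogs, was at 100 CPM or more in 15, and 82.5% of its summed level lay in the 10 highest dogs. COL11A2, a chain of the type XI collagen within the fibril, was detected in every dog, from 1.06 to 5892 CPM with a median of 40.2 CPM. Its 10 highest dogs held 45.8%. Without the dog highest in 9 genes, COL9A1 reached 809.6 CPM with 73.4% in the 10 highest dogs and COL11A2 2569 CPM with 36.5%. The highest tumors of these collagens were largely the same animals: 9 of the 10 dogs highest in COL2A1 were among the 10 highest in COL9A1, and 8 among the 10 highest in COL11A2.

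ACAN, the core protein of aggrecan, was spread through the cohort. It ranged from 0 to 9217 CPM with a median of 195.2 CPM and was at 100 CPM or more in 128 of the 186 dogs. The only library without an ACAN count was the one that stood apart, and without it the lowest level was 0.827 CPM. The 10 highest dogs held 38.3% of the summed level, and 32.7% without the dog highest in 9 genes, which left 5396 CPM as the highest level. On the log2 scale ACAN was the member with the longest tail toward low values (skewness -0.96), whereas the tail of COL2A1 (0.58) and COL9A1 (1.07) was toward high values.

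MATN3, a matrilin of growing cartilage, varied least among the matrix genes, with an SD of 1.3 on the log2 scale. Its median was 4.86 CPM with quartiles at 2.88 and 8.91 CPM, and only the dog highest in 9 genes was above 100 CPM, at 673.9 CPM. Without it the highest MATN3 level was 67.0 CPM and the SD 1.2. COMP, a pentameric matrix protein also made by tendon, ranged from 0.555 to 11075 CPM with a median of 22.1 CPM. It was at 100 CPM or more in 43 dogs, and the 10 highest held 65.5% of its summed level. Without the dog highest in 9 genes, COMP reached 1510 CPM and this share was 47.6%.

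COL10A1, the collagen of hypertrophic cartilage, gave no count in 114 of the 186 dogs, and 3 counts, the limit that a count of 0 allows, correspond to between 0.102 and 0.760 CPM in these libraries (counting error only). The gene had at least 10 counts in 38 dogs, reached 1 CPM in 34 and 100 CPM in 6, and was highest at 498.9 CPM. A COL10A1 count was found in 25 of the 50 libraries with a doubled separator and in 47 of the other 136. The median total was 11596238 counts in the 72 libraries with a COL10A1 count and 10626392 in the 114 without, a difference that the test did not separate from 0 (0.096 in mean log2 total, permutation p = 0.201, two-sided; p = 0.39 and 0.653 within the groups of libraries, permutation test). At a level of 1 CPM or more, above all these limits, the shares were 18% and 18.4%. By trial, 18 dogs of COTC021 and 16 of COTC022 were at 1 CPM or more. The 10 highest dogs held 87.2% of the summed level, and 85.8% without the dog highest in 9 genes.

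No regulator reached 100 CPM in any dog. SOX9, the factor that commits cells to cartilage, ranged from 0 to 69.2 CPM with a median of 2.11 CPM and no count in 3 dogs. SOX5, which with SOX6 binds the enhancers of matrix genes beside SOX9, ranged from 0 to 37.9 CPM with a median of 1.84 CPM. SOX6 was detected in every dog, from 0.066 to 83.2 CPM with a median of 7.12 CPM. The 10 highest dogs held 35.7% of SOX9, 31.3% of SOX5 and 24.8% of SOX6. Without the dog highest in 9 genes these shares were 31.5%, 29.2% and 25.2%, against 26.0% for MATN3 and 32.7% for ACAN. Among the genes tested, 174 of 13422 (1.3%) had over 50% of their summed level in the 10 highest dogs, and these included COL2A1, COL9A1 and COMP. Without the dog highest in 9 genes they were 175, with COL2A1 and COL9A1 but not COMP. COL10A1, which was not among the genes tested, was also past this value.

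**Figure D1:**
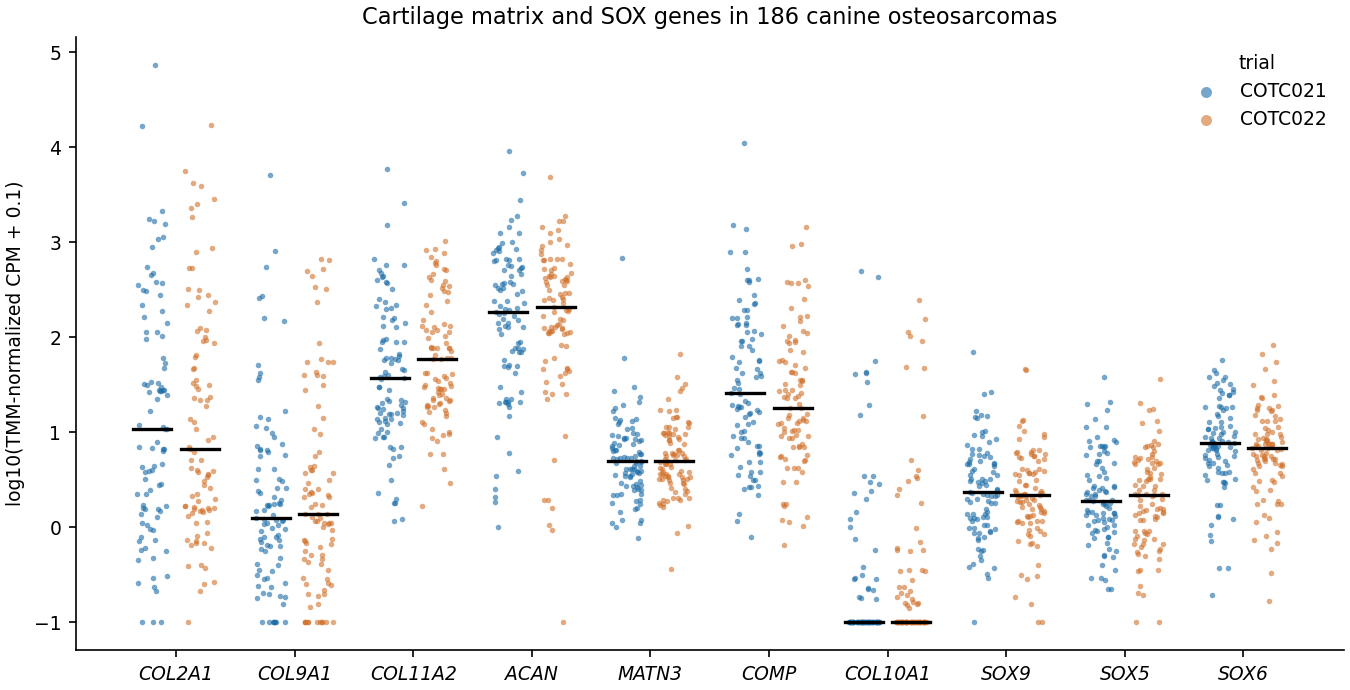
Level of each gene in each of the 186 tumors, as log10 of TMM-normalized CPM plus 0.1, with a point per dog, colors for the trial and black bars for the median of the trial. COL10A1 lies at the floor in most dogs of both trials, whereas COL2A1 spreads from 0 to 73882 CPM.

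To determine whether the genes vary together, their log2 CPM were correlated over the 186 dogs in all 45 pairs. Every pair was positive and past an adjusted p of 0.05 (permutation test, two-sided, Benjamini-Hochberg over 45 pairs). In 35 pairs the raw p was 1e-05, the smallest that 100000 resamples can give (adjusted permutation p = 1.29e-05), and the largest was 0.0196 (adjusted 0.0196, permutation test). A correlation as far from 0 as that of the weakest pair, 0.17, was however found in 28.5% of all pairs of tested genes. An r of 0.5 or more was reached by 12 of the 45 pairs and by 0.404% of all pairs of tested genes.

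The fibril collagens formed the tightest group. COL2A1 correlated with COL9A1 at r = 0.77 (Spearman rho 0.72) and with COL11A2 at r = 0.72 (rho 0.67), and COL9A1 with COL11A2 at r = 0.66 (rho 0.59). Without the 2 dogs farthest from the median of the first gene, these values were 0.75, 0.70 and 0.63. SOX9 correlated best with COL9A1 (r = 0.64, rho 0.57), then with COL2A1 (r = 0.58, rho 0.54) and ACAN (r = 0.53, rho 0.53). SOX6 correlated with COL2A1 at r = 0.59 (rho 0.57) and with SOX9 at r = 0.53 (rho 0.53). SOX5 had its highest value with COMP (r = 0.47, rho 0.47) and reached 0.26 with SOX6, the factor it resembles in sequence. ACAN reached r = 0.40 with COL2A1. MATN3 was the most weakly connected, with r between 0.17 and 0.37. Its pair with SOX5 had a rho of 0.048 (permutation p = 0.517) and an r of 0.07 without the 2 farthest dogs.

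Most pairs were past 0.05 within the groups of libraries and the trials too. For COL2A1 and COL9A1, r was 0.79 in the libraries with a doubled separator, 0.76 in the others, 0.79 in COTC021 and 0.76 in COTC022. For COL2A1 and SOX9 it was 0.76, 0.52, 0.62 and 0.55 in the same order, and for COL2A1 and SOX6 0.71, 0.54, 0.60 and 0.58. Of the 45 pairs, 43 were past 0.05 in each group of libraries. Without the library that stood apart, 44 were, and ACAN with SOX6 went from 0.44 to 0.41. Without the dog highest in 9 genes 44 were as well, and MATN3 with COL10A1 went from 0.28 to 0.19.

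**Figure D2:**
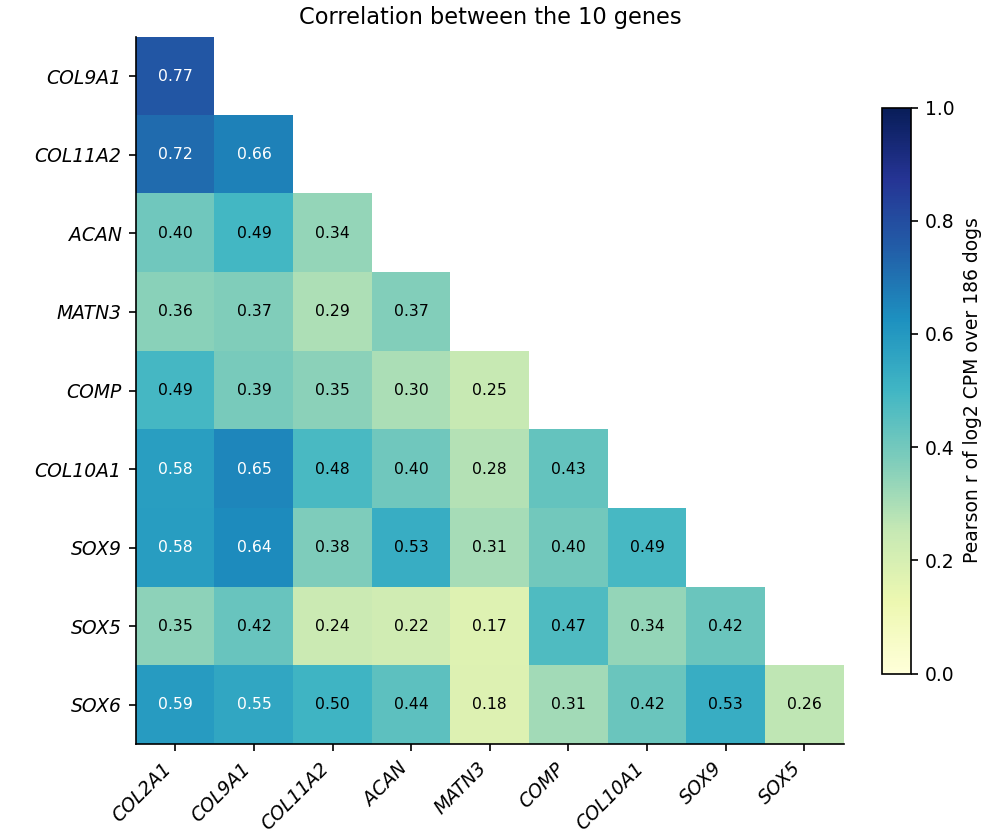
Pearson r of log2 CPM over 186 dogs for each pair of genes, printed in the cell and shaded from 0 to 1. The values between COL2A1, COL9A1 and COL11A2 (0.66 to 0.77) are the darkest, and the row and column of MATN3 (0.17 to 0.37) the palest.

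The genes with the highest r to each member were taken from those outside the 10 that have a symbol. For the collagens most were other cartilage genes. COL2A1 was most like COL9A2 (a further type IX chain, r = 0.66), CILP2 (a cartilage intermediate layer protein, 0.61), IHH (the hedgehog ligand of prehypertrophic chondrocytes, 0.57), MATN4 (a matrilin, 0.57) and MELTF (melanotransferrin, 0.56). COL9A1 was most like COL9A2 (0.68), WWP2 (a ubiquitin ligase, 0.64) and HAPLN1 (the link protein of aggrecan, 0.61), and COL11A2 like IHH (0.68), COL9A2 (0.62) and SMPD3 (a sphingomyelinase, 0.61). SOX9 had HAPLN1 (0.60), COL9A2 (0.54) and WWP2 (0.53) as its nearest genes. COL10A1 shared 3 of these, with COL9A2 (0.45), WWP2 (0.44) and HAPLN1 (0.43) ahead of FGFRL1 (0.43) and COL11A1 (0.42), and none of its 5 nearest genes was on the list for hypertrophic cartilage.

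ACAN, COMP and SOX5 had other neighbors. ACAN was most like TNN (tenascin N, 0.72), PTN (pleiotrophin, 0.69) and ASPN (asporin, 0.68), each above its highest r with any of the other 9 genes (0.53). COMP was most like CILP2 (0.64), PODN (podocan, 0.62) and AHNAK2 (0.59), and SOX5 like PDE3A (a phosphodiesterase, 0.70), LAPTM4B (0.57) and GAS2 (0.56). SOX6 was most like WWP2 (0.58), TRPV4 (a calcium channel, 0.56) and HHAT (which acylates hedgehog ligands, 0.54). MATN3 reached at most 0.41, with FZD9, followed by HAPLN1 (0.40) and GPC1 (0.39). These are values over 186 dogs, given without a test. Both genes of a pair were read from the same libraries, whose depth differed between dogs.

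A COL10A1 count was about as often found in dogs below 100 CPM of COL2A1 (37) as in those at or above it (35), though the former were 138 dogs and the latter 48. Levels of 1 CPM or more were mostly in dogs with high COL2A1. Of the 48 dogs with COL2A1 at 100 CPM or more, 25 had COL10A1 at 1 CPM or more and 13 had no COL10A1 count. Of the other 138 dogs, 9 had COL10A1 at 1 CPM or more. The dog with the highest COL10A1 also had the highest COL2A1. Among the 10 dogs highest in COL10A1, COL2A1 was as low as 3.68 CPM. The r between both genes was 0.58 (rho 0.53), and 0.59 and 0.58 in the libraries with and without a doubled separator. The 114 dogs without a COL10A1 count have nearly the same value in this correlation.

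**Figure D3:**
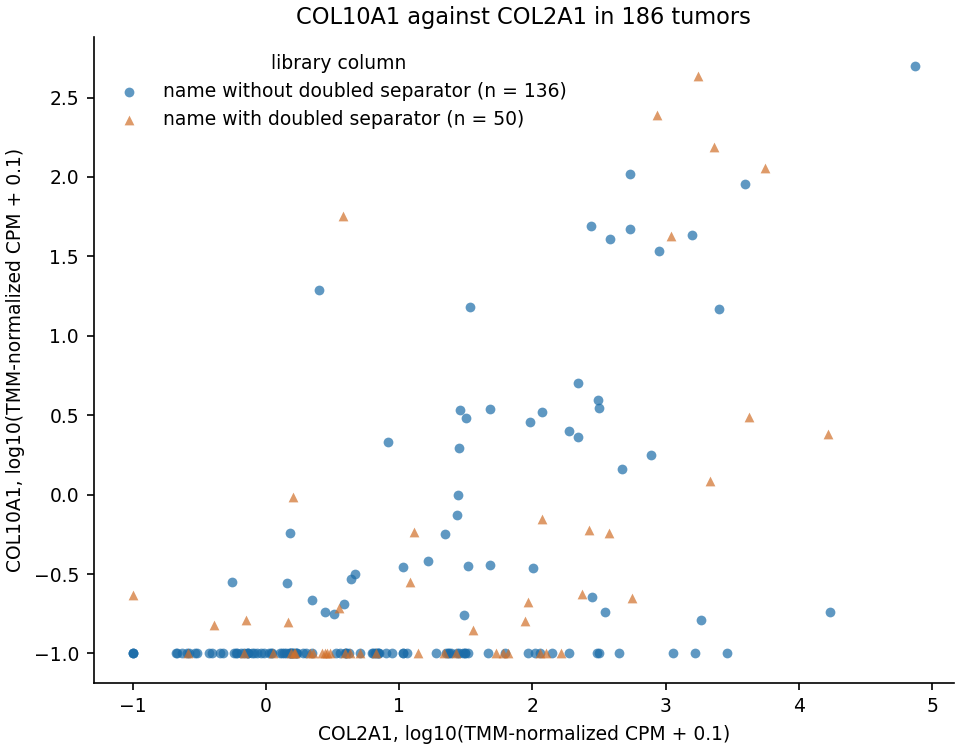
COL10A1 against COL2A1 in 186 tumors, both as log10 of TMM-normalized CPM plus 0.1, with triangles for the 50 libraries whose column name holds a doubled separator and circles for the other 136. The 114 dogs at the lowest line have no COL10A1 count, and COL2A1 runs from 0 to 2868 CPM among them.

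To compare proliferating with hypertrophic cartilage, every gene was fitted on COL2A1 and COL10A1 at once, with the trial, so that each slope is the change in log2 CPM per doubling of a collagen at a given level of the other. The other members tested rose with COL2A1. All 8 passed, against 13% of all 13421 genes tested that passed as higher and 13.4% as lower. The slopes were 0.67 ± 0.05 (SE, 186 dogs; limma adjusted p = 3.73e-27) for COL9A1, 0.37 ± 0.04 (adjusted p = 2.5e-15) for COL11A2 and 0.27 ± 0.05 (adjusted p = 9.75e-06) for COMP. SOX9 (0.23 ± 0.03) and SOX6 (0.21 ± 0.02) followed, each with an adjusted p of 4.55e-11 in limma. ACAN (0.17 ± 0.06), SOX5 (0.14 ± 0.04) and MATN3 (0.11 ± 0.03) had the lowest slopes. Within the libraries with a doubled separator 4 of the 8 passed (COL9A1, COL11A2, SOX6, SOX9) and within the others 7, with ACAN the gene that did not pass in either (0.30 and 0.11, limma adjusted p = 0.185 and 0.243). Of all 13421 genes, 43 and 959 passed as higher within these groups, in the same order. All 8 slopes were positive in both.

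With COL10A1 only COL9A1 passed. The 114 dogs without a COL10A1 count had nearly the same value of it in this fit, and its r with COL2A1 was 0.58. The numbers of calls with both collagens are therefore not on equal terms. The slope of COL9A1 was 0.30 ± 0.05 (limma adjusted p = 7.1e-05), against 0.417% of genes tested that passed as higher and 0.425% as lower. The call of COL9A1 was lost with edgeR (0.23, adjusted p = 0.0724), with DESeq2 (0.23, adjusted p = 0.0512) within COTC022 (0.27, limma adjusted p = 0.0612) and within the 50 libraries with a doubled separator (0.13, limma adjusted p = 0.775), and held within COTC021 (0.34, limma adjusted p = 0.0164), without the dog highest in 9 genes (0.30, limma adjusted p = 0.000114) and in the other 136 (0.42, limma adjusted p = 3.97e-07). ACAN (0.24 ± 0.09), COMP (0.18 ± 0.06) and SOX9 (0.11 ± 0.03) had positive slopes with limma adjusted p of 0.127, 0.132 and 0.0837. MATN3 passed with DESeq2 (0.15, adjusted p = 0.0205) and SOX9 within the 136 libraries (0.19, limma adjusted p = 0.0197). With COL10A1 alone in the fit, without COL2A1, all 8 passed as higher, where 245 of all 13421 genes did.

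The genes of the growth plate were read from lists with the same fit. Of 8 genes of proliferating cartilage 5 were tested, and 5 of 5 rose with COL2A1, with a median slope of 0.33 against -0.00039 over all genes. They ran from FGFR3 (0.17), the receptor that restrains chondrocyte division, through COL11A1 (0.29), COL9A2 (0.33) and HAPLN1 (0.39) to CNMD (chondromodulin, 0.53). Of 11 genes of hypertrophic cartilage 10 were tested, and 5 rose with COL2A1, with a median of 0.08: IHH (0.27), IBSP (0.22), MMP13 (a collagenase, 0.16), PTH1R (the receptor of parathyroid hormone, 0.11) and RUNX3 (0.05). SPP1 (osteopontin) was lowest at -0.03 (limma adjusted p = 0.536). On this list, 4 genes (ALPL, IBSP, RUNX2, SPP1) are osteoblast genes too. With COL10A1, 0 of 10 hypertrophic and 0 of 5 proliferating genes passed, with medians of -0.03 and 0.09. Among the 114 dogs without a COL10A1 count, a change per doubling of it cannot be seen. The highest hypertrophic gene was IHH (0.09, limma adjusted p = 0.474) and the lowest MMP13 (-0.11, limma adjusted p = 0.57). No hypertrophic gene passed with COL2A1 within the libraries with a doubled separator, and 2 did within the others, where the medians were 0.11 and 0.07. Of the proliferating genes 3 and 5 passed.

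Among other cartilage matrix genes 11 of 18 were tested and 6 rose with COL2A1, with a median of 0.29. On this list 7 genes stand also among the proliferating ones, and the others that rose were CILP2 (0.40) and MATN4 (0.33). Within the libraries with and without a doubled separator 4 and 6 of the 11 rose. PRG4 (lubricin of the joint surface) was lowest at -0.08 (limma adjusted p = 0.535). Of 6 tested regulators of chondrogenesis 4 rose, NKX3-2 (0.21), BMP2 (0.10), WWP2 (0.09) and TRPS1 (0.04), and ARID5B fell (-0.05), a call that was lost without the library that stood apart. Within the groups of libraries 2 (BMP2 and WWP2) and 3 (also NKX3-2) rose and none fell. For the enzymes that build glycosaminoglycan chains, XYLT1 (0.11), CHST11 (0.06) and CHST3 (0.05) rose, 3 of 8, against 0 and 2 within the groups of libraries. Of 4 proteases of aggrecan and matrix, MMP13 rose, a call lost without the library that stood apart and in each group of libraries. GS-1 genes were lower with COL2A1 in 17 of 27 cases, in 11 without that library, and in 0 and 1 within the libraries with and without a doubled separator. Leukocyte markers were lower in 3 of 4 cases, in 2 without that library and in 0 within each group. The median slope of GS-1 genes was -0.095 in all dogs, and -0.142 and -0.058 in the groups. For leukocyte markers it was -0.094, -0.154 and -0.065 in the same order. Over all 13421 genes, 1799 passed as lower in all dogs, and 22 and 857 in the groups. With COL10A1, ARID5B (0.12) and CSGALNACT1 (0.11) were the genes of these lists that passed. ARID5B passed in neither group of libraries, and CSGALNACT1 did not pass in those with a doubled separator (0.05, limma adjusted p = 0.865) or without the dog highest in 9 genes (0.09, limma adjusted p = 0.0813).

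**Figure D4:**
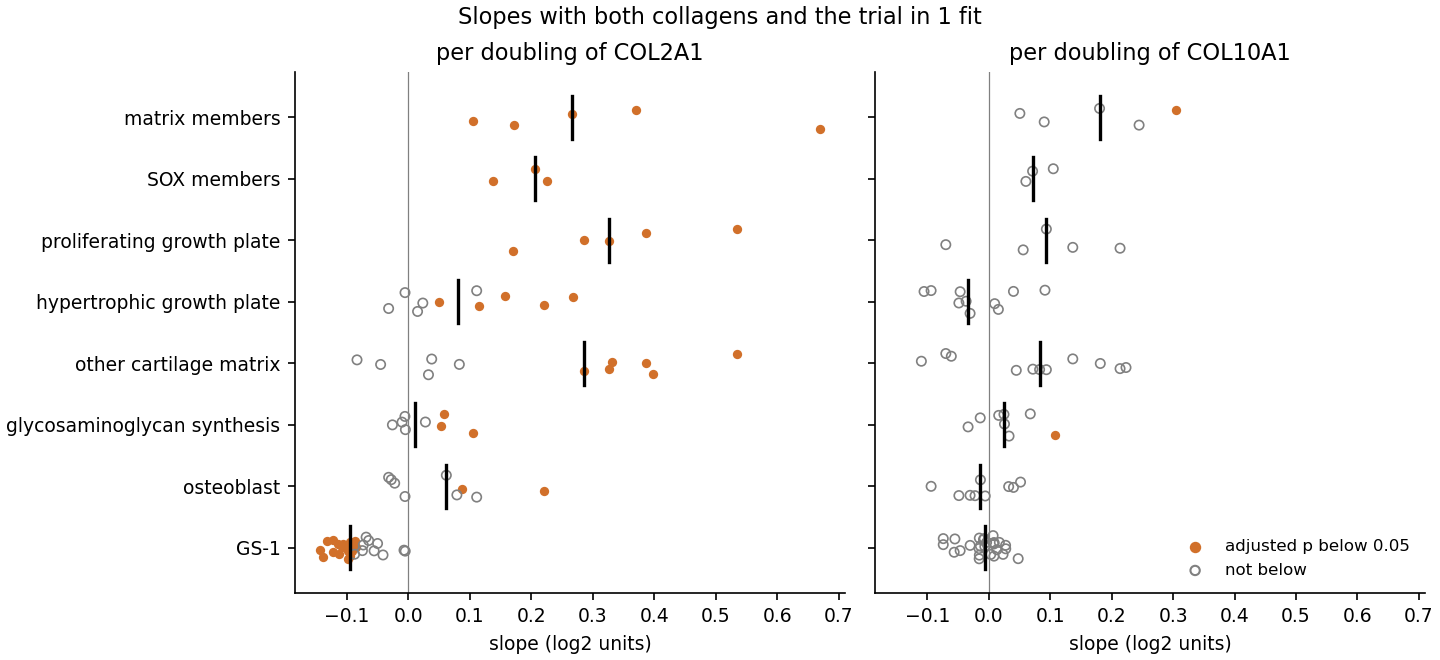
Slope of each gene per doubling of COL2A1 (left) and of COL10A1 (right) in log2 units, by gene list, with filled points for an adjusted p below 0.05 (limma) and black bars for the median of the list. The 5 proliferating genes and the 8 members lie to the right of 0 for COL2A1, and for COL10A1 only COL9A1 among the members is filled.

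The study read these tumors through several signatures, of which GS-1, a signature of immune genes, is used here. Another signature, derived in the study by bi-clustering of these same tumors, contains COL2A1 and COL11A2 with IHH, FGFR3 and SMPD3. The study had thus already grouped these genes, and that signature was not scored here. The GS-1 score was computed as the mean z-score of 27 GS-1 genes, none of them a cartilage gene. Each gene was fitted on the score with the trial. Of the 9 members tested, 6 were lower where the score was higher and none was higher, while 26.2% of all 13422 genes passed as lower and 22.3% as higher. In bulk tumors, fewer cells of a type and less RNA per cell cannot be told apart. In the limma fit COL2A1 had the steepest slope, -1.40 ± 0.38 log2 units per SD of the score (SE, 186 dogs; limma adjusted p = 0.00125), which leaves 0.379 of its level per SD. ACAN (-0.87 ± 0.19, adjusted p = 5.57e-05), COL9A1 (-0.86 ± 0.30, adjusted p = 0.013) and COL11A2 (-0.84 ± 0.18, adjusted p = 2.82e-05) were lower in the limma fit too. SOX6 (-0.71 ± 0.13, limma adjusted p = 7.46e-07) and SOX9 (-0.47 ± 0.14, limma adjusted p = 0.00271) were lower as well. COL9A1 was the steepest with edgeR (-1.72, against -1.23 for COL2A1) and DESeq2 (-1.86, against -1.24).

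COMP, SOX5 and MATN3 did not pass. Their slopes were 0.11 with a 95% confidence interval from -0.24 to 0.47, 0.06 with an interval from -0.18 to 0.31, and -0.20 with an interval from -0.40 to -0.01 (limma adjusted p = 0.626, 0.709 and 0.0766). MATN3 passed as lower with edgeR (-0.45, adjusted p = 0.00284) and DESeq2 (-0.45, adjusted p = 0.000313), and with edgeR also without the dog highest in 9 genes (-0.22, adjusted p = 0.0396). COL10A1, fitted without the low-count filter, had a slope of -0.46 ± 0.17 (limma adjusted p = 0.0331), where 13.9% of 30014 genes passed as lower. It was -0.22 (limma adjusted p = 0.726) in the libraries with a doubled separator and -0.56 (limma adjusted p = 0.0247) in the others. The call was lost within each trial, with -0.59 (limma adjusted p = 0.082) in COTC021 and -0.37 (limma adjusted p = 0.404) in COTC022, and the slope was -0.41 (limma adjusted p = 0.0496) without the dog highest in 9 genes.

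ACAN, COL11A2 and SOX6 passed in each group of libraries and in each trial. COL2A1 had a slope of -1.62 (limma adjusted p = 0.0863) in the 50 libraries with a doubled separator and -1.16 (adjusted p = 0.0333) in the other 136, and SOX9 one of -0.66 (adjusted p = 0.0351) and -0.28 (adjusted p = 0.206). COL9A1 passed in neither (-1.16 and -0.50, limma adjusted p = 0.185 and 0.276). In COTC021 the slopes of ACAN and COL2A1 were -1.23 and -1.32, and in COTC022 -0.65 and -1.47. Within COTC021 3 of the 9 members passed and within COTC022 4, with COL2A1 past the threshold only in the latter (limma adjusted p = 0.0798 and 0.0148). Of all 13422 genes, 1633 passed as lower and 1879 as higher within COTC021, and 2341 and 2317 within COTC022. SOX9 (limma adjusted p = 0.0627 and 0.0513) and COL9A1 (limma adjusted p = 0.0509 and 0.202) passed in neither trial. No gene had a slope that differed between the trials, 0% of 13422 (limma; 374 at an unadjusted p under 0.05, and 2 genes with edgeR, neither a member). Without the library that stood apart, which had the highest score, the same 6 members passed, with ACAN at -0.71 and SOX9 at -0.39, and they passed without the dog highest in 9 genes too.

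Other lists of bone and cartilage genes were read in the same fit. The lists overlap, so their counts are not separate. ALPL, IBSP, RUNX2 and SPP1 are on both the hypertrophic and the osteoblast list. HAPLN1 and COL9A2 are among the genes on both the proliferating and the other cartilage list. Over all 13422 genes, 26.2% passed as lower and 22.3% as higher. Of 10 hypertrophic genes 8 fell and 2 rose, with a median of -0.44 against -0.02 over all genes, from IHH (-1.22) to SPP1 (0.36), and 6 fell and 1 rose without the library that stood apart and within each group of libraries. Of 5 proliferating genes 3 fell, FGFR3 (-0.84), HAPLN1 (-0.77) and COL9A2 (-0.56), and CNMD was at -0.25 (limma adjusted p = 0.435). Within the libraries with a doubled separator FGFR3 and COL11A1 fell, and within the others FGFR3 alone. Of 9 osteoblast genes 5 fell and 1 rose, with a median of -0.34 and ALPL lowest at -0.92, and 5 and 4 fell within the groups of libraries. Of 11 other cartilage genes 3 fell, near the share over all genes, among them MATN4 (-0.80), and PRG4 rose (0.67). Within each group of libraries 1 fell and none rose. Over all 13422 genes, 1309 and 2313 fell within the libraries with and without a doubled separator. All 4 leukocyte markers rose, with a median of 1.22, and so did THBS4 (0.45), the only tested gene of the tendon list, FABP4 (1.12), the only tested gene of the adipocyte list, and CTSK (0.31), 1 of 4 tested osteoclast genes. The leukocyte markers and FABP4 passed in each group of libraries, CTSK in those without a doubled separator and THBS4 in neither. Of 5 genes of skeletal muscle, whose summed level ran from 0.77 to 61452 CPM, none passed. The part of these genes in the slopes of the members was not tested.

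**Figure D5:**
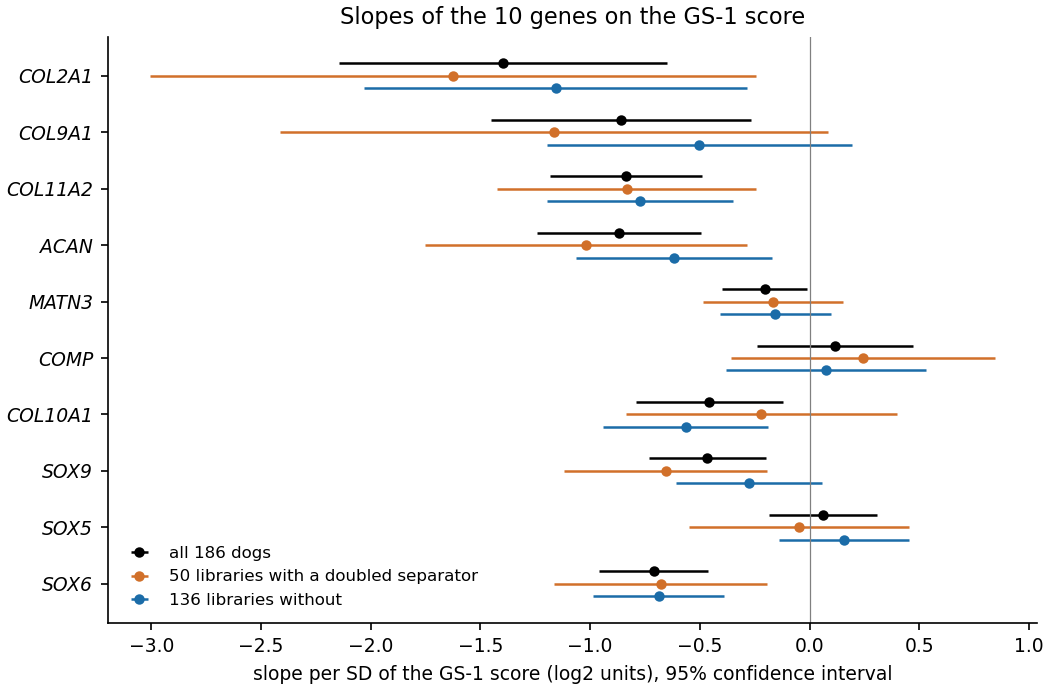
Slope of each gene per SD of the GS-1 score in log2 units with its 95% confidence interval, in all 186 dogs (black), in the 50 libraries with a doubled separator (orange) and in the other 136 (blue). COL10A1 was fitted without the low-count filter, and the intervals of COMP and SOX5 span 0 in every group.

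Between the trials no member differed. Of 13422 genes 2 passed (0.0149%), and neither was a member. Differences of COTC022 from COTC021 ran from -0.51 ± 0.37 log2 units (SE) for COMP to 0.54 ± 0.33 for COL11A2, and the smallest limma adjusted p among the members was 0.63. COL2A1 differed by -0.08 with a 95% confidence interval from -1.26 to 1.10, so that a difference of more than 2-fold in either direction remains within it. With edgeR, COMP was at -1.41 (adjusted p = 0.051) and MATN3 at -0.87 (adjusted p = 0.0611), against -0.51 and -0.07 with limma, and none of the members passed there either. Without the dog highest in 9 genes, edgeR gave -0.41 for COMP and 0.13 for MATN3 (adjusted p = 0.67 and 0.826). COL10A1, without the low-count filter, differed by -0.04 (limma adjusted p = 0.982). Within the libraries with a doubled separator the difference of COL2A1 was -2.02 and within the others 0.57, with limma adjusted p of 0.763 and 0.754.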

How the data were processed

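Privately owned dogs with appendicular osteosarcoma gave a biopsy before treatment, from which libraries were made with the TruSeq Stranded mRNA kit. The authors trimmed reads with Cutadapt, mapped them with STAR 2.7.0f to CanFam4 (GSD_1.0) and quantified genes with RSEM 1.3.1. They deposited expected counts per gene without normalization, and the 3.07% that were not whole were rounded here. Of 198 columns, 186 matched a sample and 12 were not used. Expected counts divide reads that map to several genes, which adds uncertainty for overlapping genes.

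Low genes were removed with edgeR 4.0.16 (filterByExpr with a count minimum of 10, a sample proportion of 0.5 and a large-group size of 5). The rest were normalized with TMM and fitted with voom of limma 3.58.1 in R 4.3.3, with Benjamini-Hochberg adjustment over all genes and a threshold of 0.05. CPM are counts scaled to the TMM-corrected library size, and log2 CPM used a prior count of 2. The GS-1 score is the mean z-score of 27 genes on log2(quantile-normalized CPM + 2), in SD units. In simulated data, the fit called 200 of 200 genes changed by 1 log2 unit. It wrongly called 12 of the other genes in the trial contrast and 11 for the slope. The median SD on the log2 scale was 2.41 over the 10 members and 0.62 over the genes tested. Recovery at the spread of the members, or in the fit on COL2A1 and COL10A1, was not tested. Among the alternatives were quasi-likelihood tests of edgeR, and DESeq2 1.42.0, where a missing p was left missing, and leaving out the library that stood apart, or the dog highest in 9 genes, was chosen after seeing the data. Correlations used Python 3.11.15 with scipy 1.17.1 and 100000 resamples. Depth, 6587631 to 27420857 counts, limits the precision of low genes.

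Groups are the trials in the labels. Each tumor is a separate dog. The tumors were not split into clusters, and outcome was not analysed here. Positions are from RefSeq annotation of UU_Cfam_GSD_1.0. The 10 genes and all gene lists were chosen with earlier results of these data known. Named genes are the 10, genes of the lists, and those with the highest r to a member, 5 for COL2A1 and COL10A1 and 3 for the others.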

Additional observations from a re-analysis of the deposited data

How the results depend on the processing

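For the trial the number of genes past the threshold was 2, and it was 129 with edgeR (122 without the dog highest in 9 genes), 71 with DESeq2, 0 without the low-count filter, and 0 and 8 within the libraries with and without a doubled separator. For the slope on the GS-1 score 6507 fell to 3274 within the libraries with a doubled separator and to 3512 within COTC021, and for its difference between trials edgeR gave 2 against 0. For the slope on COL2A1, 3546 became 11008 without the filter, 65 and 1816 within the libraries with and without a doubled separator, 805 within COTC021 and 1364 within COTC022. For COL10A1, 113 became 421 with edgeR, 583 with DESeq2, 6787 without the filter, 0 within the libraries with a doubled separator, 1 within COTC021, 61 within COTC022, 66 without the 2 farthest dogs and 359 without COL2A1 in the fit. Within groups fewer dogs are fitted, and the cause of the other moves was not tested.

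Members with a sign change under an alternative had not passed in the reported fit, nor did they under that alternative, where DESeq2 gave no p for COL11A2 and COL9A1 in the trial contrast. For the trial, these were ACAN (-0.34 edgeR, -0.35 DESeq2, -1.26 with a doubled separator), COL11A2 (-0.41, -0.42 and -0.83 likewise), COL9A1 (-0.82, -0.83 and -1.33 likewise, and -0.31 with the library name as covariate), COL2A1 (0.57 without a doubled separator, 0.027 without the library that stood apart) and MATN3 (0.28 without a doubled separator). With edgeR and without the dog highest in 9 genes, ACAN was at -0.044, COL2A1 at 0.51, MATN3 at 0.13 and SOX5 at 0.13. For the GS-1 slope, these were COMP (-0.27 edgeR, -0.27 DESeq2, -0.029 within COTC022) and SOX5 (-0.17, -0.17 and, with a doubled separator, -0.048, and -0.12 with edgeR without the dog highest in 9 genes). For the difference of that slope between trials, edgeR gave 1.83 for COL2A1, 0.25 for COMP and 0.39 for MATN3, the library name as covariate gave 0.013 for MATN3 and -0.065 for SOX9, MATN3 was at 0.14 without the library that stood apart and SOX9 at -0.024 without the filter and -0.0057 without the dog highest in 9 genes. COL11A2 on COL10A1 was at -0.041 with a doubled separator.

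All 45 correlations remained positive under each alternative, with 41 to 45 past 0.05. The median share of the 10 members held by the highest 5% of dogs was 47.6%. It fell to 34.6% without the dog highest in 9 genes, and was 41.9% by CPM of the library total. Within the libraries with and without a doubled separator it was 36.5% and 51.9%, and without the library that stood apart 47.6%. The median over the 30014 genes with a rounded count was 30%, against 12.3% over the tested genes. In COL10A1, depth sets what a count of 0 allows. No paired analysis was possible because the trials share no dog.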
